A study of Homo sapiens with 6 samples.

Results

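FOS, JUN, MYC and ETS2 are transcription factor genes that respond to mitogen signalling and make short-lived messages. They were chosen by name and make up 4 of the 89 genes on a cancer pathway PCR array. The array was run on RNA from Panc-1, a human pancreatic cancer cell line. Tet-on driver cells carried the pRetro-X Tet-on-Advanced plasmid alone and were a pool selected with G418. Tet-on CaSm cells were a subset of that pool that also received the full-length human CaSm sequence under a doxycycline-responsive promoter and were selected with G418 and puromycin, so the cells of all 3 conditions carry the Tet-on driver and are pools rather than single clones. The 3 conditions were tet-on driver cells with doxycycline, tet-on CaSm cells without doxycycline (non-induced) and tet-on CaSm cells with doxycycline (induced). Doxycycline was used at 1 μg/ml and the cells were grown for 4 weeks. Non-induced and driver cells therefore differ in the CaSm plasmid, in puromycin and in doxycycline, which cannot be told apart in that comparison, and the methods keep tet-on CaSm cells in doxycycline between experiments. Each condition had 2 plates, and nothing in the labels says that they came from separate cultures, so p-values measure only the spread between these plates, which may be technical.

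In textbook accounts, growth factor receptors signal through the kinase ERK to switch on immediate early genes within minutes. FOS and JUN encode the partners of the AP-1 dimer, MYC encodes a basic helix-loop-helix factor that drives growth and cell cycle genes, and ETS2 encodes an ETS family factor that ERK phosphorylates. Their messages are normally turned over fast, in part through AU-rich elements that recruit deadenylation and decapping, and CaSm belongs to the LSm ring that acts with the decapping enzymes. The array measured message levels and not decay rates. It compared these levels in induced cells with those in driver cells and in non-induced cells. Induced and driver cells also differ in the added plasmid itself and in puromycin. Induced and non-induced cells also differ in doxycycline itself. Neither comparison can tell these apart from CaSm.

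Each value starts from a threshold cycle (Ct), the PCR cycle at which a gene's signal crossed a set level, so that each further cycle means roughly 1 log2 unit less of the message. From it the plate mean of the normalizing genes B2M, HPRT1 and GAPDH was taken away to give ΔCt, and a lower ΔCt is a higher level. This plate mean lay between 19.7 and 20.3 on the 6 plates. All 4 genes were well inside the measured range, with a Ct between 22.95 and 27.18 on every plate, and all 4 passed the Ct limit of 35. The sample titles carry a mark that some plates of different conditions share. The labels do not say what it stands for, and plates with the same mark are called a run here only as a name. Numbered by this mark, the plates are driver replicates 2 and 3, and replicates 1 and 2 of both tet-on CaSm conditions. The induced plates stood apart from each other: 78.5% of the 79 genes under the limit on all plates had a higher level on replicate 1, by a median of 0.34 log2 units. CaSm itself was not analysed here, and the ductal markers KRT7, KRT19, EPCAM and CDH1 are not on the array. Markers of other cell types came up late at best, with a lowest Ct of 33 for TEK (endothelium), 34.02 for SYK (blood cells), 34.93 for GZMA (cytotoxic lymphocytes) and 36.85 for TWIST1 (mesenchyme).

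ETS2 fell and MYC rose in induced cells relative to driver cells, FOS fell relative to non-induced cells, and JUN stayed within its plate spread in every comparison. Against driver cells 2 of the 4 genes passed an adjusted p-value of 0.05 in limma (1 higher, 1 lower), where 23.5% of the 85 genes tested did (10.6% higher, 12.9% lower). The median log2 fold change was −0.46 for the 4 genes and −0.08 over all genes tested. Against non-induced cells 2 of the 4 passed, both lower, where 25.3% of 83 genes did (7.23% higher, 18.1% lower), and the medians were −0.68 and −0.21. Against the 4 control plates together 3 of the 4 passed (1 higher, 2 lower), where 22.4% of 85 genes did (10.6% higher, 11.8% lower). These comparisons share the induced plates and are not independent. In a population of cells, fewer cells with a message and less message per cell cannot be told apart.

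**Figure D1:**
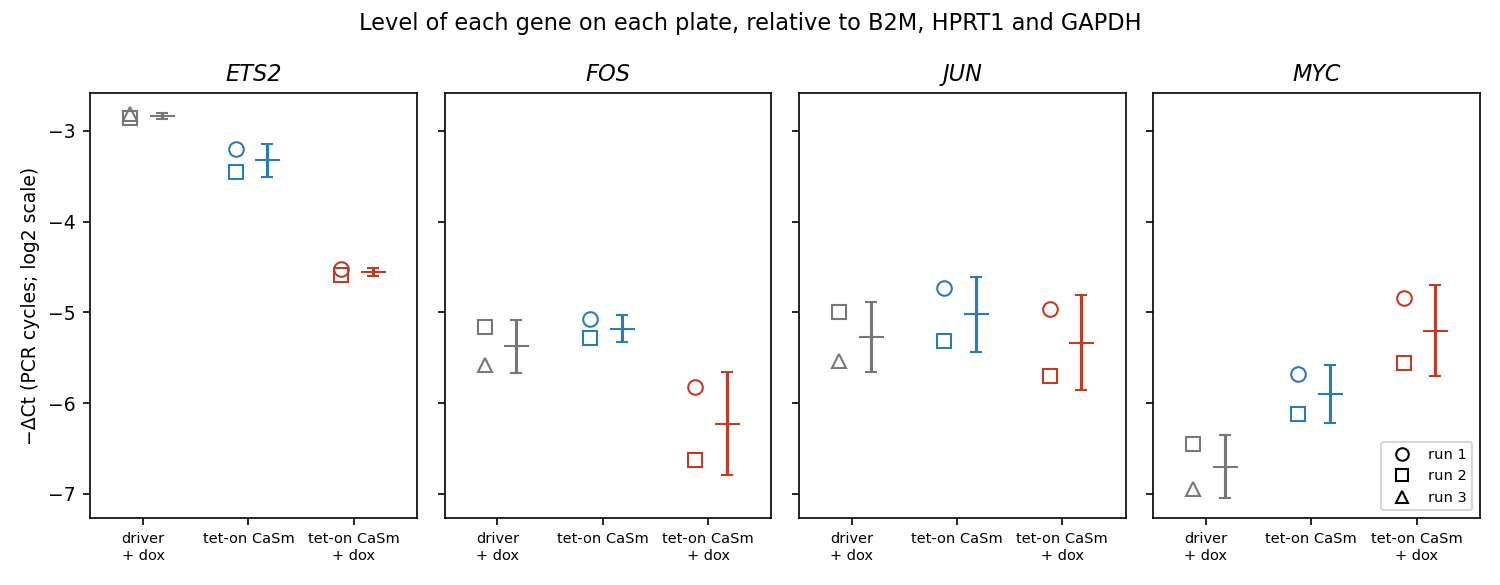
The level of each gene as −ΔCt in PCR cycles (a log2 scale, higher is more template) on each of the 6 plates, by condition and by run, with the mean and SD (n = 2 plates) beside the points. ETS2 steps down and MYC steps up from driver to non-induced to induced cells without overlap, FOS is lowest on the induced plates, and the JUN plates overlap in all 3 conditions.

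The promoter windows of FOS and ETS2, both of which fell against non-induced cells, are shown for reference. FOS is at chr14:75278828-75282230 and ETS2 at chr21:38805183-38824955, both on the plus strand, and JUN at chr1:58780791-58784047 on the minus strand (GRCh38.p14, RefSeq). The RefSeq table of windows from 250 bases before to 50 bases after each start held 3 of the 4 genes, and has 2 starts for ETS2. Both strands of each window were searched for the TATA box letters TATAAA. The AP-1 site was searched as TGACTCA, which also finds its other strand. The cAMP response element was searched as TGACGTCA. The E-box that MYC binds was searched as CACGTG, and an ETS site as the letters GGAAGT. The shorter GGAA was not searched. No match overlapped another in these windows. Capitals mark a match, printed 5′ to 3′ on the gene's strand.
FOS, chr14:75278578-75278877: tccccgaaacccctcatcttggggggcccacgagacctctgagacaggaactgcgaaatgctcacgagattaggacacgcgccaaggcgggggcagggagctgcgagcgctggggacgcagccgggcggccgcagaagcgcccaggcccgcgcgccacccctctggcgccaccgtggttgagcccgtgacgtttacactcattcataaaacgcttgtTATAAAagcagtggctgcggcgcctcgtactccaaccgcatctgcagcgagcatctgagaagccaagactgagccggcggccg
ETS2, first start, chr21:38804933-38805232: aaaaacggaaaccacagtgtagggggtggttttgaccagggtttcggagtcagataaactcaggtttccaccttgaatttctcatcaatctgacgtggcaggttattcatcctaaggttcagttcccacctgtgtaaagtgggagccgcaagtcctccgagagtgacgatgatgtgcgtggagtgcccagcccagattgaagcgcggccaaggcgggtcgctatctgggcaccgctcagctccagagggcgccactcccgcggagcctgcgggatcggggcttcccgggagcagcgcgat
ETS2, second start, chr21:38805679-38805978: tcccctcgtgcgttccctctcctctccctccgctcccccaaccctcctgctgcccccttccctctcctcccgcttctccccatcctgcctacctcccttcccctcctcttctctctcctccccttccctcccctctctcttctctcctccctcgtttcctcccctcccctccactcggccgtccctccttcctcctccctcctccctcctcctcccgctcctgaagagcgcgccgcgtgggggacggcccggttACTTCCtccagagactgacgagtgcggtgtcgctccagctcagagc
FOS holds TATAAA from position −33, which 11.5% of 35116 windows of 300 bases also hold. The second ETS2 window holds GGAAGT on the minus strand from position 5 of the transcribed side, as do 22.8% of windows. Nothing matched in the first ETS2 window or in that of JUN (chr1:58783998-58784297). TGACTCA occurs in 4.95% of all windows, TGACGTCA in 1.85% and CACGTG in 7.26%. A match is a description of letters and not of binding, which the array did not measure. Only these exact letters were searched, so a window without a match may still hold a variant of a site.

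ETS2, an ETS family activator downstream of ERK, had a ΔCt of 2.86 and 2.81 in driver cells, 3.20 and 3.45 in non-induced cells and 4.53 and 4.59 in induced cells. The 3 conditions did not overlap, and the induced plates were the lowest in level. Its mean ΔCt was 2.83 ± 0.03 (SD, n = 2) in driver, 3.33 ± 0.18 (SD, n = 2) in non-induced and 4.56 ± 0.04 (SD, n = 2) in induced cells. Against driver cells the level was 3.30-fold lower (log2 fold change −1.72 with a 95% interval of −2.24 to −1.21, standard error 0.23, adjusted p = 0.00066 by limma), the lowest log2 fold change of the 85 genes tested in that fit. Against non-induced cells it was 2.35-fold lower (log2 fold change −1.23 with a 95% interval of −1.75 to −0.71, adjusted p = 0.0046 by limma). The step from driver to non-induced cells, −0.49 with an interval of −1.01 to 0.03, did not pass the test (adjusted p = 0.243 from limma), although the gap between the plates was 0.34 cycles.

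The replicates of ETS2 were close. Its pooled SD within conditions was 0.11 cycles, against a median of 0.23 over the 79 genes under the limit on all plates. The 2 induced plates differed by 0.06 cycles, a smaller difference than for most of these genes (percentile 8.86). Within run 2, which holds a plate of each condition, ETS2 was lower in induced than in driver cells by a log2 difference of −1.73 and than in non-induced cells by −1.13, and within run 1 induced minus non-induced was −1.33. The call against driver cells held in 10 of 10 alternative settings and with each of the 6 plates left out. The call against non-induced cells held in 9 of 10 settings and was lost without non-induced replicate 1 (log2 fold change −1.10, adjusted p = 0.0856 from limma).

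MYC, the growth-driving factor, had a ΔCt of 6.46 and 6.95 in driver cells, 5.68 and 6.12 in non-induced cells and 4.85 and 5.56 in induced cells. The levels rose in that order and the conditions did not overlap, with a gap of 0.33 cycles between driver and non-induced plates and of 0.12 cycles between non-induced and induced plates. The mean ΔCt was 6.70 ± 0.35 (SD, n = 2) in driver, 5.90 ± 0.32 (SD, n = 2) in non-induced and 5.20 ± 0.50 (SD, n = 2) in induced cells. Against driver cells MYC rose 2.83-fold (log2 fold change 1.5 with an interval of 0.82 to 2.18 at 95%, standard error 0.31, adjusted p = 0.0049 by limma). Relative to non-induced cells the value was 0.70 (interval 0.02 to 1.38), which did not pass (adjusted p = 0.134 from limma).

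The difference between the controls, non-induced minus driver, was 0.80 for MYC (standard error 0.31, interval 0.12 to 1.48). It did not pass either (adjusted p = 0.162 from limma). The controls thus lay 0.80 apart in MYC, beside 0.70 between non-induced and induced cells, and neither step passed alone. Within run 2 the differences were 0.90 for induced minus driver, 0.33 for non-induced minus driver and 0.57 for induced minus non-induced, and within run 1 the last was 0.83. The driver plate with the lowest MYC level was replicate 3, the only plate of its run. Without it the log2 fold change against driver cells was 1.25 (adjusted p = 0.0155 from limma). The call against driver cells held with each plate left out, at 1.15 to 1.86, and in 7 of 10 settings. With the run as a block, where the driver level rested on replicate 2 alone, it ended, at 0.97. Against both controls MYC was 2.14-fold higher (adjusted p = 0.0107 from limma), which was lost without induced replicate 1 (log2 fold change 0.75, adjusted p = 0.101) and without non-induced replicate 2 (adjusted p = 0.0666).

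FOS, the regulated partner in AP-1, had a ΔCt of 5.17 and 5.58 in driver cells, 5.08 and 5.28 in non-induced cells and 5.83 and 6.63 in induced cells. Both induced plates were lower in level than all 4 control plates, and the 2 controls overlapped. The means were 5.37 ± 0.29 (SD, n = 2) in driver, 5.18 ± 0.15 (SD, n = 2) in non-induced and 6.23 ± 0.57 (SD, n = 2) in induced cells. Against non-induced cells FOS fell 2.07-fold (log2 fold change −1.05 with a 95% interval of −1.71 to −0.38, standard error 0.30, adjusted p = 0.0340 by limma). Against driver cells the value was −0.85 (interval −1.52 to −0.19), which did not pass (adjusted p = 0.0640 from limma), and non-induced minus driver was 0.19 (interval −0.47 to 0.86). With the run as a block the value against driver cells was −1.31 and passed. Driver replicate 3 is alone in its run, so in that fit the driver level rested on replicate 2 alone. The standard error there was the same for all genes named here, and so did not reflect the spread of FOS.

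The size of the FOS difference rested on induced replicate 2. Without it the log2 fold change was −0.65 against non-induced cells (adjusted p = 0.181 from limma) and −0.45 against driver cells (adjusted p = 0.318). Without induced replicate 1 the values were −1.45 (adjusted p = 0.0060 from limma) and −1.25 (adjusted p = 0.0113). The call against non-induced cells was also lost without either non-induced plate (adjusted p = 0.119 and 0.191 from limma). Within run 1 induced minus non-induced was −0.75 and within run 2 it was −1.34, so the sign was the same in both. Against both controls FOS was 1.93-fold lower (log2 fold change −0.95, adjusted p = 0.0199 from limma), and lost the call without induced replicate 2 (−0.55, adjusted p = 0.231), without non-induced replicate 1 (adjusted p = 0.0815) and without non-induced replicate 2 (adjusted p = 0.0666). The call held in 5 of 10 settings against non-induced cells and in 5 of 10 against both controls.

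JUN, which encodes the AP-1 subunit that can also pair with itself, had a ΔCt of 5.0 and 5.54 in driver cells, 4.73 and 5.31 in non-induced cells and 4.97 and 5.71 in induced cells. All 3 conditions overlapped. The means were 5.27 ± 0.38 (SD, n = 2), 5.02 ± 0.41 (SD, n = 2) and 5.34 ± 0.52 (SD, n = 2) in the same order. The log2 fold change was −0.07 against driver cells (95% interval −0.79 to 0.65, adjusted p = 0.869 from limma) and −0.32 against non-induced cells (interval −1.04 to 0.40, adjusted p = 0.520). These intervals leave room for a fold between 0.58 and 1.57 of the driver level, so the plates do not show that JUN was unchanged. Its pooled SD of 0.44 cycles was above that of most genes (percentile 94.9 of 79). The sign against driver cells turned with HPRT1 alone and with GAPDH alone.

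**Figure D2:**
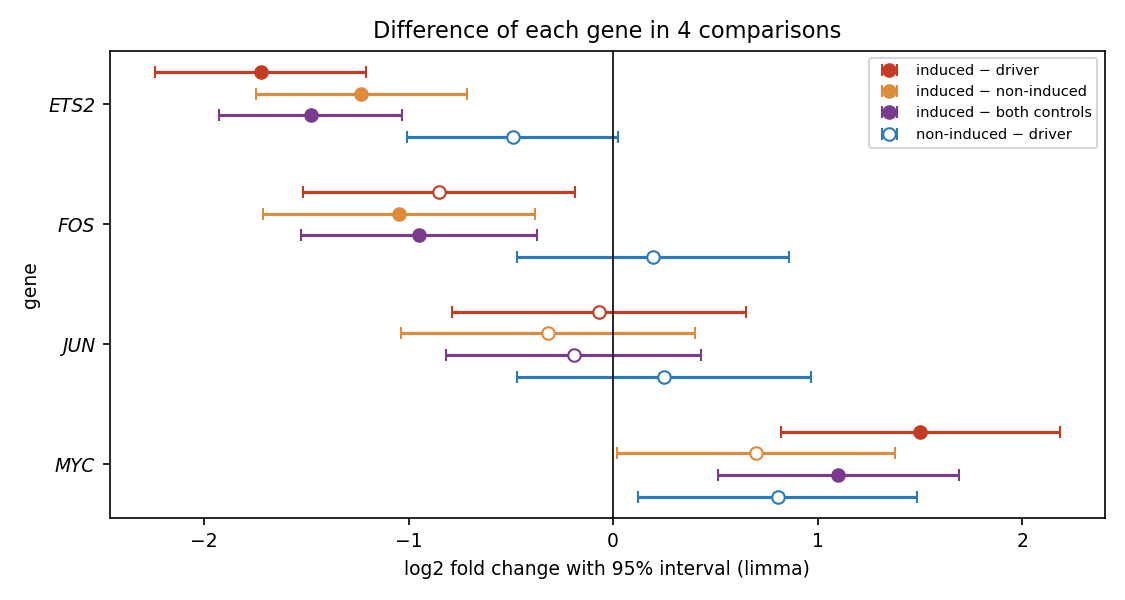
Log2 fold change (horizontal axis) of the 4 genes in 4 comparisons, with 95% intervals from limma over all 6 plates. Filled points passed an adjusted p-value of 0.05 over all genes tested: ETS2 in the 3 comparisons with induced cells, MYC against driver cells and both controls, and FOS against non-induced cells and both controls.

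Between the 2 controls none of the 4 genes passed the test. The count was 0 of 4 by limma after adjustment and 1 of 4 (MYC) at an unadjusted p-value under 0.05, where 7.06% of the 85 genes passed after adjustment and 21.2% before it. The plates of the controls did not overlap for 2 of the 4 genes (MYC and ETS2), where 50.6% of the 85 genes did not. Induced plates stood clear of the driver plates, of the non-induced plates and of all 4 control plates for 3 of the 4 genes (all but JUN), where 54.1%, 61.4% and 36.5% of all genes tested stood clear. The smallest p-value open to an exact two-sided permutation of the plates was 0.333 for 2 plates against 2 and 0.0667 for 2 against 4, so limma alone was used.

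Replicate plates differed in the same direction for most genes, FOS, JUN and MYC among them. On the induced plates replicate 1 was higher than replicate 2 by 0.80 cycles for FOS, 0.74 for JUN and 0.71 for MYC, which are differences at percentiles 96.2, 93.7 and 91.1 of the 79 genes. The non-induced plates differed in the same direction, by 0.21, 0.59 and 0.45 cycles, as did 67.1% of the 79 genes. On the driver plates replicate 2 was higher than replicate 3 by 0.41, 0.54 and 0.49 cycles, as did 72.2% of the genes. For ETS2 these differences were 0.06 on the induced, 0.26 on the non-induced and −0.05 on the driver plates. The part of the plate in the differences between conditions was not tested.

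The Ct of 1 gene minus the Ct of another on the same plate needs no normalizing gene. Assays can differ in efficiency, so only the change of this difference between conditions is read. For JUN and MYC the Ct of MYC minus that of JUN was 1.46 and 1.41 cycles in driver cells, 0.95 and 0.81 in non-induced cells and −0.12 and −0.15 in induced cells. The plates of a condition lay close together and the conditions were apart. MYC relative to JUN was thus 2.97-fold higher in induced than in driver cells and 2.02-fold higher than in non-induced cells.

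For FOS and JUN, the AP-1 partners, the Ct of JUN minus that of FOS was −0.17 and −0.04 in driver cells, −0.35 and 0.03 in non-induced cells and −0.86 and −0.92 in induced cells. The controls overlapped and both induced plates were below them. In induced cells FOS relative to JUN was 1.72-fold below driver cells and 1.66-fold below non-induced cells. For MYC and ETS2 the Ct of ETS2 minus that of MYC was −3.60 and −4.14 in driver cells, −2.48 and −2.67 in non-induced cells and −0.32 and −0.97 in induced cells. This is a 9.35-fold change between driver and induced cells and 3.81-fold between non-induced and induced cells. The Ct of ETS2 minus that of FOS differed by 1.14-fold between non-induced and induced cells, and those plates overlapped. These ratios are descriptions of pairs picked from 4 genes whose values were known, and were given no test.

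**Figure D3:**
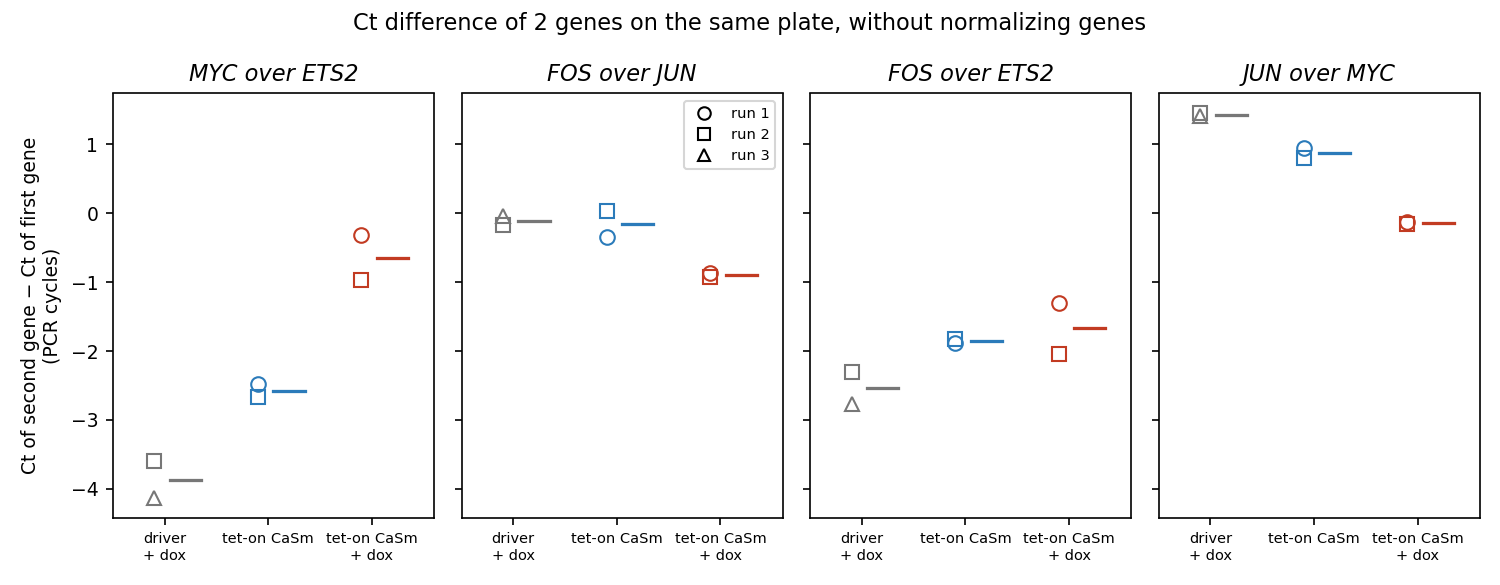
The Ct of the second gene minus the Ct of the first on the same plate, in PCR cycles, for 4 pairs, with the mean of each condition as a line (n = 2 plates) and the run as the symbol. JUN over MYC falls from 1.46 and 1.41 cycles in driver cells to −0.12 and −0.15 in induced cells with plates that nearly coincide, while FOS over ETS2 overlaps between non-induced and induced plates.

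The values moved with the scaling. B2M alone moved every log2 fold change against driver cells by −0.47 and GAPDH alone by 0.39. HPRT1 alone moved it by 0.07. Calls over all genes then changed from 9 higher and 11 lower to 7 higher and 37 lower with B2M alone. The sign of ETS2, MYC and FOS in the comparisons with induced cells was the same under the 4 other scalings tried. ACTB and RPL13A were not used as scales, and both differed in induced cells. ACTB was at −1.65 against driver and −1.68 against non-induced cells, and RPL13A at 1.55 and 1.23. These values are about as large as those of ETS2 and MYC, so the stable sign holds only for the scales tried. The log2 fold change against driver cells ranged over 10 settings from −2.19 to −1.33 for ETS2, from 0.97 to 1.90 for MYC and from −1.32 to −0.46 for FOS. FOS passed against driver cells with B2M alone (adjusted p = 0.0035 from limma) and lost its call against non-induced cells with HPRT1 alone (adjusted p = 0.0963) and with GAPDH alone (adjusted p = 0.135).

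**Figure D4:**
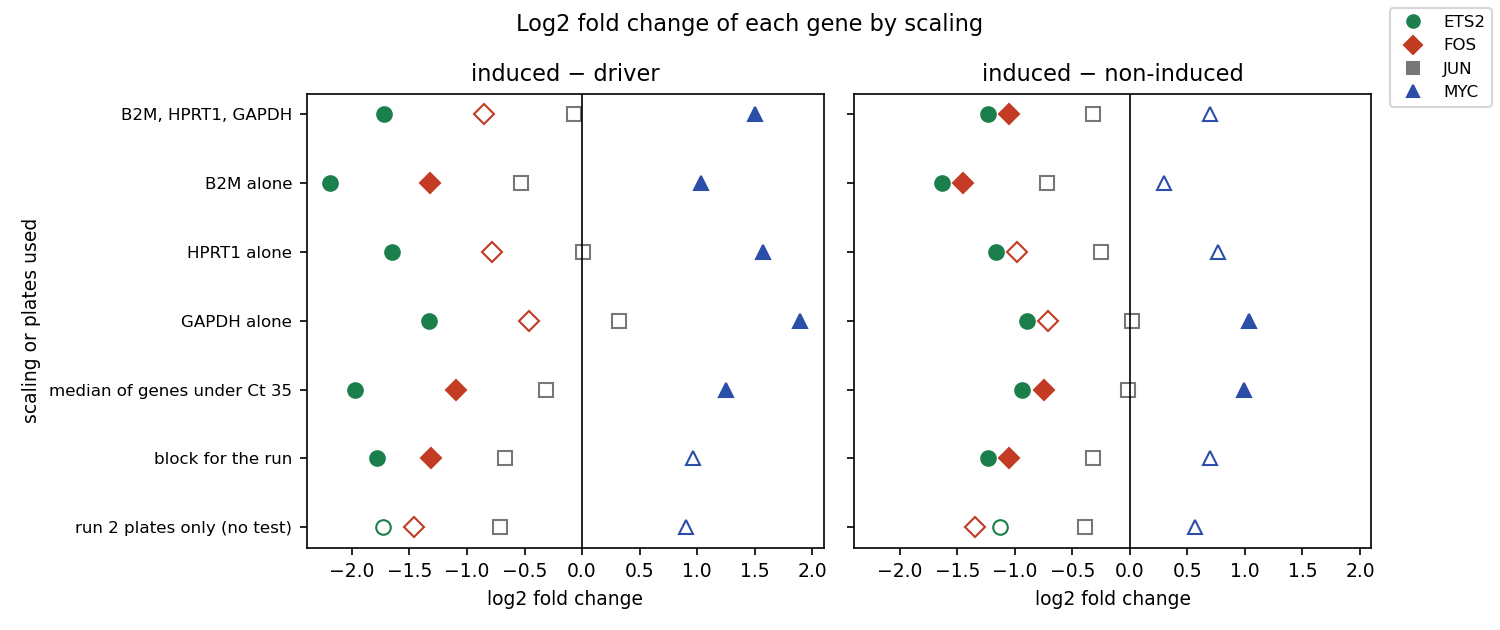
Log2 fold change (horizontal axis) of the 4 genes under 5 scalings, a block for the run, and the plates of run 2 alone, against driver cells (left) and non-induced cells (right). Filled points had an adjusted p-value under 0.05, and the last row has no test. ETS2 and FOS stay below 0 and MYC above 0 in every row, while JUN lies on both sides.

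Genes whose −ΔCt followed each of the 4 most closely over the 6 plates were ranked by Pearson's r among 75 genes, as a description. The plates share the normalizing genes and plate-wide offsets, and there are only 3 conditions, so high values are common. MYC was most like TNFRSF10B, a death receptor (r = 0.99, with centred levels that differed by at most 0.17 cycles). Next came PNN (r = 0.96, at most 0.83 cycles) and VEGFA, an angiogenic factor (r = 0.96, at most 0.435 cycles). ETS2 was most like BAD, which promotes apoptosis (r = 0.96, at most 0.44 cycles), ACTB (r = 0.94) and ITGA2, an integrin subunit (r = 0.93). FOS was most like CDC25A, a cell cycle phosphatase (r = 0.96, at most 0.45 cycles), ITGA2 (r = 0.94) and E2F1 (r = 0.92). JUN was most like the chemokine gene IL8 (r = 0.95, at most 0.38 cycles), BAX (r = 0.94) and the kinase gene AKT1 (r = 0.90). Among the 4 genes themselves r was 0.79 for FOS and ETS2, 0.70 for FOS and JUN, and −0.85 for MYC and ETS2. In the order of log2 fold changes against driver cells ETS2 stood next to ACTB, FOS between ITGA2 and CDKN2A, JUN between TNFRSF1A and MMP2, and MYC between TNFRSF10B and PLAUR.

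Upstream of the 4 factors the array carried 10 genes for mitogen receptors, ligands and kinases, among them ERBB2, FGFR2, MET, IGF1, PDGFA and AKT1. Against driver cells 0 of 10 passed an adjusted p-value of 0.05 in limma, where 23.5% of all genes passed. Before adjustment 4 of 10 were under 0.05, where 35 of the 85 genes tested were. The median log2 fold change was −0.15 against −0.08 over all genes tested. The largest values were −0.79 for IGF1 and 0.56 for PDGFA. IGF1 lay near the Ct limit of 35, with a mean Ct before capping of 34.2 in driver and 35.2 in induced cells. Against non-induced cells 2 of 10 were lower, where 18.1% of all genes were, the receptor gene ERBB2 (log2 fold change −0.99, adjusted p = 0.0415 in limma) and PIK3R1, which encodes a regulatory subunit of PI3K (−0.92, adjusted p = 0.0367 in limma), and the median was −0.23 against −0.21. Each of these calls held in 4 of 10 settings and in only 3 of the 6 fits that left 1 plate out. Between the controls 1 of 10 passed, where 7.06% of all genes did, the receptor gene FGFR2, which was lower in non-induced cells (−0.87). That call held in 4 of 10 settings and in 2 of the 6 fits that left 1 plate out.

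Genes that textbooks give as targets of the 4 factors did not follow a single direction. Of 6 AP-1 or ETS responsive genes (MMP1, MMP9, PLAU, PLAUR, IL8 and TIMP1), 2 rose against driver cells, PLAUR, the urokinase receptor gene (log2 fold change 1.54), and the collagenase gene MMP1 (0.85), and the list median was 0.47. Over all genes 10.6% rose and the median was −0.08. PLAUR was also higher in non-induced than in driver cells (1.16). This call held in 4 of 10 settings and in 3 of the 6 fits that left 1 plate out. Against non-induced cells MMP1 alone passed (0.80), where 7.23% of all genes rose, and the median was 0.16 against −0.21 over all genes. The MMP1 calls held in 1 and 3 of 9 settings, at a mean Ct of 31.1 in induced and 32.2 in non-induced cells, and the PLAUR call against driver cells in 8 of 10. With a plate left out the MMP1 calls held in 1 of 6 cases each and the PLAUR call in 6 of 6. The list is short and holds genes with many other regulators.

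Of 5 genes that textbooks give as activated by MYC, 3 were lower in induced than in driver cells and 2 did not pass: CDC25A (log2 fold change −1.02), the S-phase regulator E2F1 (−0.94) and NME1 (−0.79) fell, while CDK4 was at −0.14 and TERT at 0.19. The same 3 were lower against non-induced cells, at −1.74, −1.54 and −1.02, and the list medians were −0.79 and −1.02. Over all genes 12.9% were lower against driver cells and 18.1% against non-induced cells, with medians of −0.08 and −0.21. These calls held in 4, 4 and 3 of 10 settings against driver cells and in 8, 8 and 7 of 10 against non-induced cells. With a plate left out they held in 2, 2 and 0 of 6 cases against driver cells and in 5, 5 and 4 of 6 against non-induced cells. MYC itself was higher in the same induced plates. Its difference passed against driver cells but not against non-induced cells (0.70, adjusted p = 0.134 from limma). Of 2 genes given as repressed by MYC, THBS1, an angiogenesis inhibitor gene, was higher in induced than in driver cells (1.34, 9 of 10 settings) and lower than in non-induced cells (−0.71, 2 of 10 settings and 0 of 6 plates left out), and CDKN1A, which encodes the cell cycle inhibitor p21, was at 0.06 and 0.20. Among other transcription factor genes of the array E2F1 fell, as given above, NFKB1 (−0.33) did not pass against driver cells, and TWIST1 was above the Ct limit on every plate.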

How the data were processed

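RNA was measured on 6 PCR array plates, 2 per condition. The authors deposited the Ct of 89 genes per plate in PCR cycles, without normalization (per the labels: RNeasy Plus RNA, RT2 First Strand cDNA, SYBR Green, Roche Lightcycler). The threshold setting is not given in the sources used here. A second deposited table holds the authors' signed fold changes and was not used. Conditions were taken from the labels. Ct values above 35 were set to 35, and the plate mean of B2M, HPRT1 and GAPDH was taken away (ΔCt). The 6 plates entered a single limma 3.58.1 model of −ΔCt (R 4.3.3) with a mean for each of the 3 conditions (3 residual degrees of freedom). Variances were moderated by empirical Bayes, and p-values adjusted by Benjamini-Hochberg over all genes tested, 85, or 83 against non-induced cells. Every p-value is from this model, with a threshold of 0.05. The code was tested on simulated data. Figures used Python 3.11.15 and matplotlib 3.10.9. All 89 gene names matched RefSeq (GRCh38.p14), 1 as a synonym.

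The members, gene lists and tests were chosen with earlier results of these data known. The text names the 4 members, listed genes that passed the test or had the largest change, the 3 genes most like each member, and its neighbours in the order of log2 fold change. Some genes that this rule or the lists hold are not reported here. The 10 settings counted per result were scaling to B2M, HPRT1 or GAPDH by itself or to the median gene, capping Ct at 40, keeping genes whose mean Ct was under 30, adding the run as a block, fitting the compared plates only, leaving out moderation, and using the own variance of each gene on those plates. Each plate was also left out in turn, and run 2 was used alone.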

Additional observations from a re-analysis of the deposited data

How the results depend on the processing

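Of the calls in the comparisons with induced cells, those of ETS2 against driver cells and both controls were kept in 10 of 10 settings and with each plate left out. ACTB and RPL13A were not among the scales of these settings. The other results that crossed the threshold or changed direction follow as log2 fold changes, and where no value or construction is named the cause was not tested. With B2M alone FOS against driver cells (−1.32) and JUN against both controls (−0.63) passed. With HPRT1 alone FOS lost its call against non-induced cells (−0.98) and both controls (−0.88), and JUN against driver cells turned to 0.005. With GAPDH alone FOS lost the same calls (−0.71 and −0.59), MYC against non-induced cells passed (1.04), and JUN turned to 0.33, 0.02 and 0.17 against driver cells, non-induced cells and both controls. With the median gene as the scale FOS against driver cells (−1.10), MYC against non-induced cells (1.00) and ETS2 between the controls (−1.04) passed, and FOS (−0.35) and JUN (−0.30) turned between the controls. This scale moved every gene by −0.54 between the controls.

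A Ct limit of 40 ended the calls of FOS against non-induced cells (−1.05) and both controls (−0.95) and of MYC against both controls (1.10). Without moderation and with each gene's own variance on the plates compared, the same 3 calls (−1.05, −0.95 and 1.10) and that of MYC against driver cells (1.5) ended, and own variance also ended ETS2 against non-induced cells (−1.23). With only genes of a mean Ct under 30, and so fewer genes tested, FOS against driver cells passed (−0.85). With run 2 alone, 1 plate a condition and no test, FOS was at −1.46 against driver cells and −1.40 against both controls, JUN at −0.71 against driver cells and −0.32 between the controls, MYC at 0.90 and 0.33, and FOS turned between the controls (−0.12).

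Whether the run numbers pair the replicates was not settled. Deviations did not correlate over genes between induced and non-induced cells (r = −0.17 over 76 genes), a measure that leaves out an offset common to all genes, and replicate 1 was above replicate 2 for 78.5% and 67.1% of 79 genes. With the run as a replicate block, FOS against driver cells passed (−1.31), MYC against driver cells lost its call (0.97), and FOS (−0.27) and JUN (−0.36) turned between the controls. With this block the genes named here all had the same standard error within a comparison, so the spread of each gene did not enter. Driver replicate 3 is alone in its run, so the driver level in this fit rested on replicate 2 alone. With crossed pairing, tried after the data were seen, 19 genes were called against non-induced cells.

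The 20 genes called against driver cells became 44 with B2M alone, 11 with HPRT1, 10 with Ct capped at 40, 11 with only the plates compared, 5 without moderation and 2 with own variance. The 21 called against non-induced cells became 42, 6 and 8 with B2M, HPRT1 and the limit of 40, 4 without moderation and 0 with own variance (15 at an unadjusted p-value under 0.05). The 19 called against both controls became 57 with B2M alone and 4 without moderation or with own variance. The 6 called between the controls became 2 with HPRT1, 1 with Ct capped at 40, 2 with the block, 1 without moderation and 0 with own variance (9 at an unadjusted p-value under 0.05). The counts above are of limma.

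With each plate left out in turn, log2 fold changes against driver cells, non-induced cells, both controls and between the controls ranged as follows. ETS2 lay at −1.75 to −1.69, −1.36 to −1.10, −1.54 to −1.41 and −0.62 to −0.36. FOS lay at −1.25 to −0.45, −1.45 to −0.65, −1.35 to −0.55 and −0.013 to 0.40. JUN lay at −0.44 to 0.30, −0.69 to 0.053, −0.56 to 0.18 and −0.045 to 0.54. MYC lay at 1.15 to 1.86, 0.34 to 1.05, 0.75 to 1.46 and 0.56 to 1.05. Genes called numbered 11 to 17, 3 to 21, 13 to 25 and 1 to 9. Where 1 plate of a condition remained, it was assumed to vary like the others. With 2 plates a condition, the number of plates limits the precision.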
